A study of Homo sapiens with 18 samples.

Results

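A set of 10 genes that mark the passage between epithelial and mesenchymal states, chosen by gene symbol from a table of 58302 genes, were followed in 18 messenger RNA libraries of thyroid cancer cells. They were the epithelial adhesion genes CDH1 and EPCAM, the mesenchymal genes CDH2, VIM and FN1, and the transcription factor genes ZEB1, ZEB2, SNAI1, SNAI2 and TWIST1, and all 10 had a row in the table. TPC1 is a cell line from a human papillary thyroid carcinoma with wild-type Dicer1, and D11 is a Dicer1 (+/-) clone made from it with CRISPR-Cas9, so D11 stands for 1 clone and not for the genotype in general. Cells of each line were left without transfection (NT) or received 5 nM of either a negative control siRNA (NC) or a siRNA against Dicer1 (siDicer). RNA was taken on day 4, with 3 replicates in each of the 6 groups. The study's methods state in general that experiments were repeated independently, but do not say for these libraries which came from separate cultures, so p-values measure the spread between these libraries, which may be partly technical.

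In an epithelial to mesenchymal transition, cells give up the junctions that hold an epithelium together and take on the cytoskeleton and matrix of migratory cells. The factors of the SNAIL, ZEB and TWIST families bind E-box elements and repress epithelial genes such as CDH1, and microRNAs of the miR-200 family in turn repress ZEB1 and ZEB2. Dicer1 cuts microRNA precursors into mature microRNAs, which is a possible link between the siRNA used and these genes. That link was not tested here.

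Values are read counts that the authors scaled to about 20 M reads per library (M for mega) and rounded, called normalised read counts below. Library depth, recovered from the steps between low values, ran from 11.3 to 23.2 M reads, and 3 reads, used as the detection floor, were worth 2.58 to 5.32 normalised counts. The groups follow the sample descriptions, which match the column names of the table, while the sample titles place 12 of the 18 libraries in another group. DICER1 itself (ENSG00000100697) read 1582, 1510 and 1397 (TPC1 NT), 2492, 1901 and 2366 (TPC1 NC) and 255, 395 and 246 (TPC1 siDicer), and 655, 1157 and 923 (D11 NT), 1536, 1433 and 1407 (D11 NC) and 297, 451 and 277 (D11 siDicer). All siDicer libraries lay below all controls of their line, by 2.64 on the log2 scale in TPC1 (SE 0.21, adjusted p = 0.000337, limma) and 1.77 in D11 (SE 0.25, adjusted p = 0.000649). Of the thyroid markers, PAX8, a transcription factor of follicular cells, had a mean of 9806 over the 18 libraries, whereas NKX2-1 was listed at 0 in every library, and TSHR and SLC5A5 never passed the floor.

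The epithelial adhesion genes were at or near the floor in every group. CDH1 (ENSG00000039068, GRCh38 chr16:68737292-68835537, plus strand) encodes E-cadherin, the main cadherin of adherens junctions. It read 0, 4 and 0 (TPC1 NT), 4, 2 and 0 (TPC1 NC), 2, 4 and 5 (TPC1 siDicer), 0, 4 and 3 (D11 NT), 2, 0 and 4 (D11 NC) and 6, 0 and 8 (D11 siDicer). The highest value, 8 in D11 siDicer, corresponded to 6 reads. EPCAM (ENSG00000119888, chr2:47345158-47387601, plus strand), an epithelial cell adhesion molecule, reached 6 in 1 TPC1 siDicer library and was between 0 and 3 in the other libraries. CDH1 passed the floor in 6 of 18 libraries and EPCAM in 1 of 18. Both were left out of the tests by the filter on low values, which required 3 or more libraries of a comparison to reach 10, and no fold change is given for them. Depth here does not allow a change at these levels to be seen.

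The mesenchymal genes were abundant. FN1 (ENSG00000115414, chr2:215360440-215436073, minus strand), which encodes the matrix protein fibronectin, had the highest mean of all genes in the table, and its share of a library was 0.384% to 1.10%. VIM (ENSG00000026025, chr10:17228241-17237593, plus strand), the gene of the intermediate filament protein vimentin, ranked 31 by mean. Set per kilobase of annotated exon and per M reads, the mean level over the 18 libraries was 450 for FN1, 287 for VIM, 15.6 for SNAI2, 11.5 for ZEB1, 6.73 for CDH2, 2.38 for SNAI1, 1.29 for ZEB2 and 0.89 for TWIST1, against 0.022 for CDH1 and 0.026 for EPCAM. The cells thus had mesenchymal marker transcripts and almost none of the epithelial pair before any transfection.

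**Figure D1:**
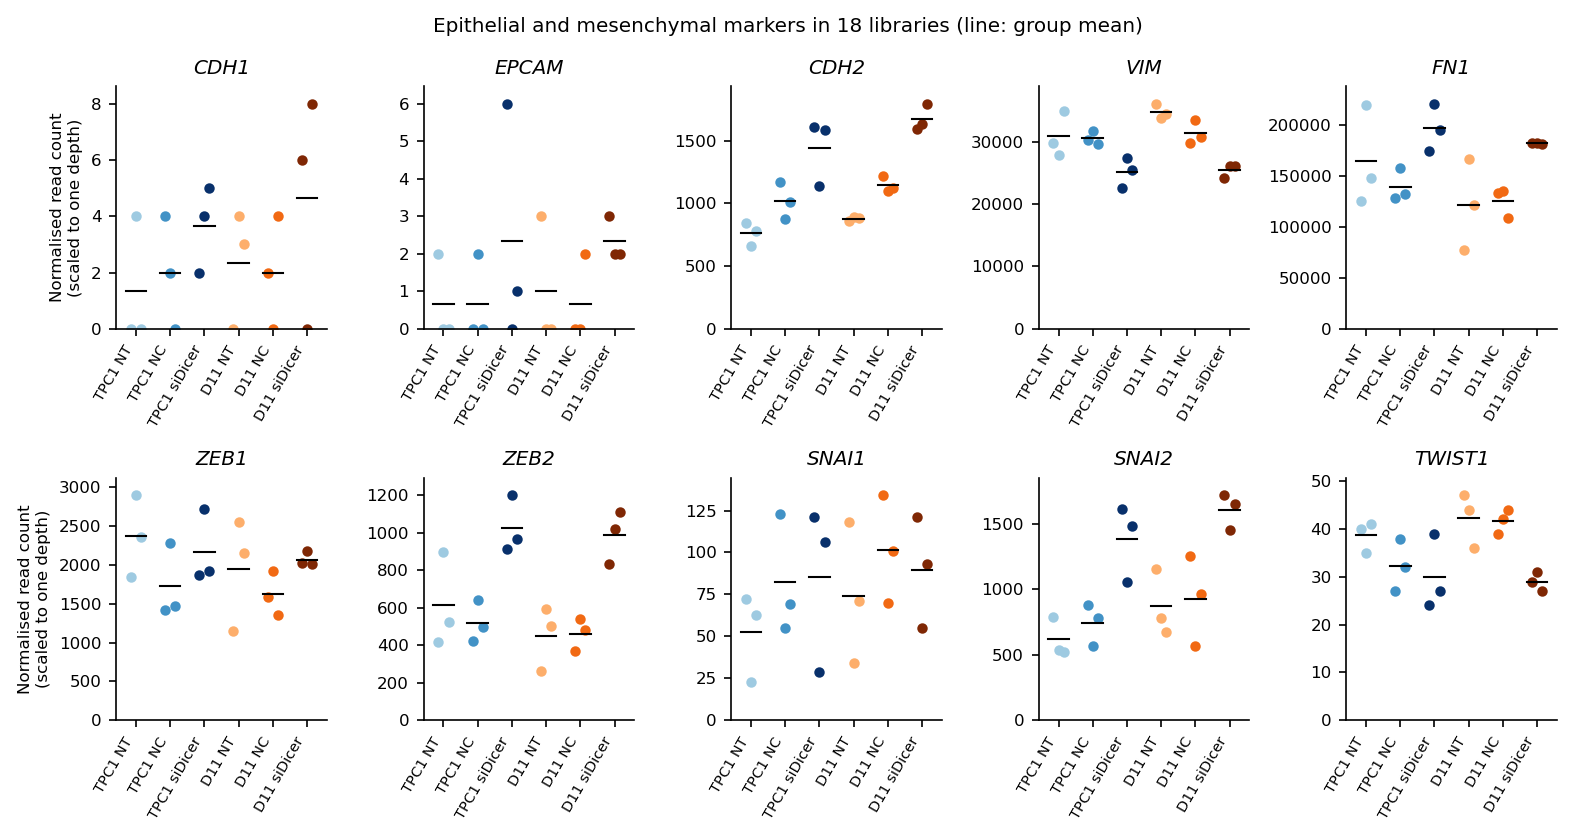
Normalised read counts of the 10 markers in the 6 groups, with 1 point for each library (3 per group) and a line at the group mean; each panel has its own linear axis from 0. CDH1 and EPCAM do not exceed 8 and 6, the siDicer points of SNAI2 and ZEB2 lie above all control points of their line, and those of VIM lie below.

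Under siDicer, SNAI2, ZEB2 and CDH2 rose in TPC1, and SNAI2, ZEB2, CDH2 and FN1 rose in D11. A gene was called when limma gave a Benjamini-Hochberg adjusted p under 0.05 over all genes tested and the fold change was at least 1.5, with NT and NC together as 6 controls. By that rule 3 of the 8 tested markers were higher and 0 lower in TPC1, where 3.22% of 18475 genes were called higher and 4.16% lower. In D11 4 of 8 were higher and 0 lower, where 5.26% of 18413 genes were called higher and 6.75% lower. The median log2 change of the 8 markers was 0.32 in TPC1 and 0.43 in D11, against -0.037 and -0.040 over all genes tested. The markers were chosen with earlier results of these data known, so these counts describe them and are not independent evidence.

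SNAI2 (ENSG00000019549, chr8:48917598-48921740, minus strand) encodes the repressor SLUG, a member of the SNAIL family. In TPC1 it read 791, 540 and 525 (NT), 878, 569 and 782 (NC) and 1615, 1054 and 1485 (siDicer). In D11 it read 1157, 782 and 677 (NT), 1254, 571 and 963 (NC) and 1719, 1457 and 1656 (siDicer). The 3 siDicer libraries of each line lay above the 6 controls. The log2 change was 1.03 (SE 0.20, adjusted p = 0.00828) in TPC1 and 0.89 (SE 0.21, adjusted p = 0.0112) in D11, and the mean was 2.03 times and 1.79 times that of the controls. The call held against NT alone and against NC alone in each line. With siDicer replicate 1 or 3 left out, so that 2 siDicer libraries remained, it was lost in TPC1 (adjusted p = 0.0581 and 0.0586) and in D11 (0.0506 and 0.0563).

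ZEB2 (ENSG00000169554, chr2:144364364-144521057, minus strand) encodes a zinc finger repressor of CDH1. In TPC1 it read 418, 895 and 525 (NT), 424, 639 and 496 (NC) and 913, 1199 and 968 (siDicer). The D11 libraries read 261, 592 and 500 (NT), 369, 539 and 479 (NC) and 836, 1021 and 1110 (siDicer). Again no siDicer library overlapped the controls of its line, although the highest TPC1 control, NT replicate 2, came within 18 counts of the lowest siDicer library. The log2 change was 0.90 (SE 0.22, adjusted p = 0.0215) in TPC1 and 1.15 (SE 0.22, adjusted p = 0.00326) in D11. In TPC1 the call was lost against NT alone (0.81, adjusted p = 0.0974) and with any siDicer library left out (adjusted p = 0.0689, 0.0565 and 0.0846 without replicates 1, 2 and 3), whereas in D11 it held in each of these cases.

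ZEB1 (ENSG00000148516, chr10:31318495-31529814, plus strand), the related repressor, did not follow ZEB2. TPC1 libraries read 1845, 2896 and 2363 (NT), 1424, 2284 and 1478 (NC) and 1866, 2721 and 1917 (siDicer). D11 libraries read 1154, 2557 and 2153 (NT), 1584, 1928 and 1351 (NC) and 2030, 2174 and 2007 (siDicer). The groups overlapped in each line. Between libraries with the same replicate number, ZEB1 was higher in siDicer than in NC in 6 of 6 pairs, as were 17.9% of the 19181 genes tested in all libraries, and higher in siDicer than in NT in 2 of 6. The log2 change was 0.11 (95% interval -0.38 to 0.59, adjusted p = 0.791) in TPC1 and 0.26 (95% interval -0.18 to 0.71, adjusted p = 0.387) in D11.

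ZEB1 and ZEB2 are shown with their miR-200 seed matches because they are the best known targets of that family and because only ZEB2 was called. The 5 mature microRNAs of the family, credited to RefSeq (GRCh38.p14), fall into 2 seed groups, with the seed, bases 2 to 8, in capitals.
miR-200b-3p: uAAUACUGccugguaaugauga
miR-200c-3p: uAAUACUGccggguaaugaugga
miR-429: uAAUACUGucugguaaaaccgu
miR-200a-3p: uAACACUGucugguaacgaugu
miR-141-3p: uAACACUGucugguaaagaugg
The letters CAGTATT, which pair with the seed of miR-200b, miR-200c and miR-429, were searched on the transcript strand of the canonical 3′ untranslated region of each of 19547 genes (GENCODE 44, GRCh38). They were found in 16.0% of these regions, and 3 or more times in 0.859%. ZEB1 held 6 matches in a region of 2540 bases and ZEB2 held 5 in 5370 bases. Windows of 27 bases around these matches follow, 5′ to 3′ on the transcript strand, with the match in capitals.
ZEB1, chr10:31527621-31527647: gttttatcttatCAGTATTatcactct
ZEB1, chr10:31527715-31527741: ctaaatccgcttCAGTATTttattatg
ZEB1, chr10:31528144-31528170: agtgccatttctCAGTATTttcaaggc
ZEB1, chr10:31528495-31528521: atttttacctatCAGTATTattttatt
ZEB1, chr10:31528565-31528591: cttcaaacctggCAGTATTaataccct
ZEB1, chr10:31529216-31529242: tttcatcattatCAGTATTttctttgg
ZEB2, chr2:144389045-144389071: actaccatacatCAGTATTtttattat
ZEB2, chr2:144388982-144389008: actacaatgcatCAGTATTatgattcc
ZEB2, chr2:144388624-144388650: aagcacccatgtCAGTATTagaagaat
ZEB2, chr2:144388539-144388565: cattaattttgtCAGTATTacaccaaa
ZEB2, chr2:144388408-144388434: tactgtagtgtaCAGTATTatagttct
CAGTGTT, the match of miR-200a and miR-141, was found in 18.2% of regions, with 3 in ZEB1 and 4 in ZEB2. FN1 held 2 matches to CAGTATT and SNAI2 held 1, while CDH1, CDH2, EPCAM, VIM, SNAI1 and TWIST1 held neither sequence. Of the markers with a match, ZEB2 and SNAI2 were called under siDicer in both lines, FN1 in D11 and ZEB1 in neither. Of those without a match, CDH2 was called in both lines, and VIM, SNAI1 and TWIST1 in neither. CDH1 and EPCAM were not tested. Whether the matches bear on these changes was not tested. Of the other seeds searched, the let-7a match CTACCTC was present in 9.76% of regions and once in CDH1, the miR-30a match TGTTTAC in 15.6% and once each in SNAI1 and SNAI2, the miR-34a match CACTGCC in 15.6% and once each in ZEB1 and SNAI1, the miR-205 match ATGAAGG in 11.6% and once in ZEB1, and the miR-203a match CATTTCA in 3909 of the regions, 4 times in ZEB1 and once each in ZEB2 and SNAI2. These microRNAs were picked after the values of the markers were seen, their levels were not measured in these libraries, and a match is not evidence of binding. Among the host transcripts listed here, MIR200CHG, which carries miR-200c and miR-141, never passed the floor and MIR205HG was listed at 0 in all 18 libraries, whereas MIR34AHG, which carries miR-34a, was above the floor in all 18, at 89 to 241.

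**Figure D2:**
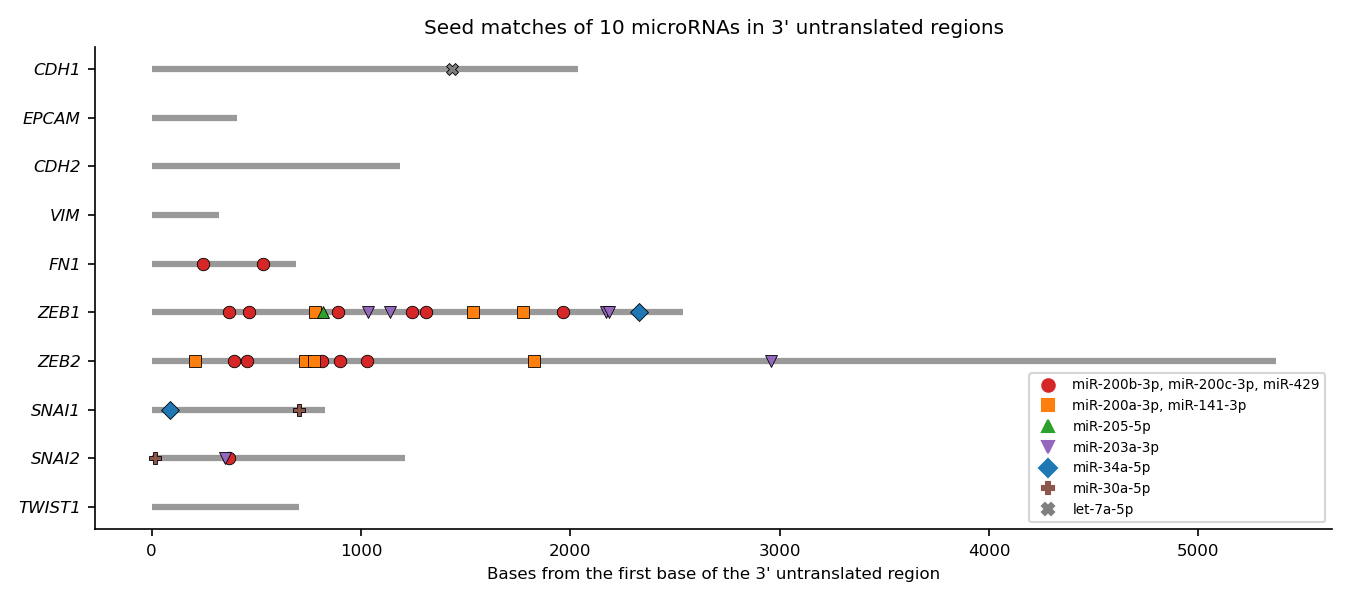
Positions of seed matches of 10 microRNAs along the canonical 3′ untranslated region of each marker (x axis: bases from the first base of the region; grey bar: its length; symbols: seed groups). ZEB1 and ZEB2 carry 6 and 5 matches of the miR-200b group.

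CDH2 (ENSG00000170558, chr18:27932879-28177946, minus strand) encodes N-cadherin, the cadherin that replaces E-cadherin in the classical transition. In TPC1 it read 843, 656 and 783 (NT), 1169, 875 and 1011 (NC) and 1609, 1139 and 1589 (siDicer). In D11 it read 860, 894 and 882 (NT), 1222, 1099 and 1126 (NC) and 1596, 1636 and 1793 (siDicer). The order NT, NC, siDicer was therefore seen in the means of each line, and no library of D11 broke it. Against all controls the log2 change was 0.71 (SE 0.17, adjusted p = 0.0231) in TPC1 and 0.74 (SE 0.13, adjusted p = 0.00191) in D11. Against NC alone it was 0.50 (adjusted p = 0.0915) and 0.54 (adjusted p = 0.00492), both under the fold minimum, so the call was lost in each line. It was also lost in TPC1 without siDicer replicate 1 or 3 (adjusted p = 0.126 in each case).

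FN1 read 125188, 220137 and 147927 (TPC1 NT), 128832, 157674 and 131867 (NC) and 174361, 220774 and 195495 (siDicer). In D11 it read 76834, 166748 and 121080 (NT), 133548, 134943 and 108805 (NC) and 182857, 182575 and 181714 (siDicer). The D11 siDicer libraries lay close together and above all controls, while in TPC1 the value of NT replicate 2 came close to the highest siDicer library. The log2 change was 0.60 (SE 0.18, adjusted p = 0.0316) in D11 and 0.40 (SE 0.17, adjusted p = 0.132) in TPC1. The D11 call was close to both thresholds: it was lost against NT alone (0.66, adjusted p = 0.0538), against NC alone (0.54, under the fold minimum), without the filter on low values (adjusted p = 0.0711) and without NT replicate 1 (0.47), NT replicate 3, NC replicate 3 or any siDicer library (0.57 to 0.60).

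VIM went the other way. It read 29916, 27954 and 34998 (TPC1 NT), 30305, 31817 and 29732 (NC) and 22635, 27508 and 25495 (siDicer). In D11 it read 36113, 33934 and 34521 (NT), 29876, 33581 and 30840 (NC) and 24248, 26114 and 26091 (siDicer). All siDicer libraries were below all controls of their line, which was true of 9.91% of genes tested in TPC1 and 14.1% in D11. Its siDicer mean was 81.9% (TPC1) and 76.9% (D11) of that of the controls. Its log2 change was -0.29 (SE 0.089, adjusted p = 0.0528) in TPC1 and -0.38 (SE 0.083, adjusted p = 0.00698) in D11, both smaller than the fold minimum, and VIM was called in D11 when that minimum was dropped. VIM shares exon bases with VIM-AS1 and AL133415.1 on the opposite strand, which read 5008 to 8942 and 10295 to 16146, and whether counting used the strand is not given in the sources used here. The same holds for CDH2 and ZEB1, whose opposite-strand neighbours AC110015.1 and ZEB1-AS1 read 59 to 165 and 59 to 168.

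TWIST1 (ENSG00000122691, chr7:19020991-19117636, minus strand), the gene of a basic helix-loop-helix factor, was low throughout, at 24 to 47. It read 40, 35 and 41 (TPC1 NT), 27, 38 and 32 (NC) and 24, 39 and 27 (siDicer), so those groups overlapped. In D11 it read 47, 44 and 36 (NT), 39, 42 and 44 (NC) and 29, 31 and 27 (siDicer), with all siDicer libraries below the controls. Its change was -0.25 in log2 units (SE 0.22, adjusted p = 0.470) in TPC1 and -0.52 (SE 0.18, adjusted p = 0.0599) in D11, and neither was called. Like VIM, it did not move with SNAI2 and ZEB2.

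SNAI1 (ENSG00000124216, chr20:49982980-49988886, plus strand), which encodes the founding member of the SNAIL family, varied widely within groups, with an SD of 31.5% to 57.8% of the group mean. It read 72, 23 and 63 (TPC1 NT), 123, 55 and 69 (NC) and 121, 29 and 106 (siDicer), and 118, 34 and 71 (D11 NT), 134, 70 and 101 (NC) and 121, 55 and 93 (siDicer). The siDicer values overlapped those of the controls in each line. Taken pair by pair between libraries with the same replicate number, SNAI1 was higher in siDicer than in NT in 6 of 6 pairs, as were 16.9% of the 19181 genes tested in all libraries, and higher in NC than in NT in 6 of 6, as were 10.4%, but higher in siDicer than in NC in 1 of 6. The log2 change was 0.25 (95% interval -0.88 to 1.38) in TPC1 and 0.082 (95% interval -0.73 to 0.89) in D11, and against NC alone it turned negative in each line (-0.10 and -0.20).

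**Figure D3:**
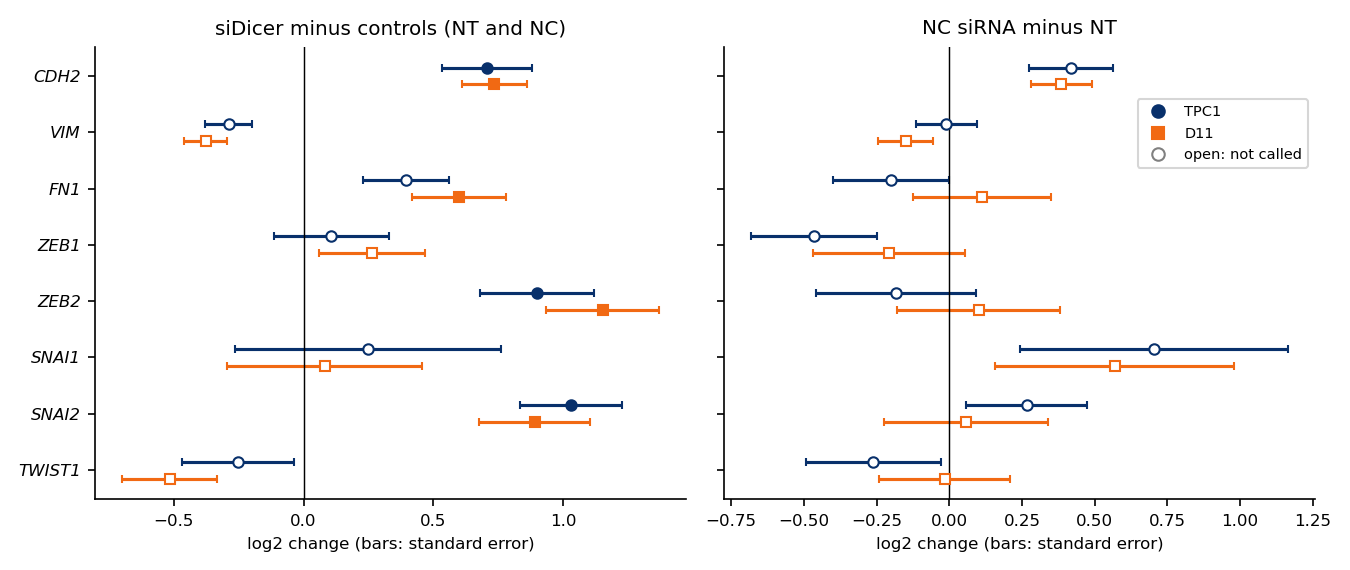
Log2 change of the 8 tested markers with its standard error, in TPC1 (circles) and D11 (squares), filled where called; left, siDicer minus the 6 controls, right, NC minus NT. SNAI2, ZEB2 and CDH2 are filled in both lines and FN1 in D11, and no marker is filled on the right, where CDH2 is at 0.42 and 0.39.

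In total, 2 of 8 markers in TPC1 (SNAI2 and ZEB2) and 4 of 8 in D11 (SNAI2, ZEB2, CDH2 and FN1) had every siDicer library above every control, which was true of 7.62% and 11% (1408 and 2022) of all genes tested. VIM in TPC1, and VIM and TWIST1 in D11, had every siDicer library below. The difference between the lines was tested as an interaction. For SNAI2 the D11 change minus the TPC1 change was -0.14 on the log2 scale (95% interval -0.80 to 0.52), for ZEB2 0.25 (-0.44 to 0.95), for CDH2 0.029 (-0.44 to 0.50), for FN1 0.20 (-0.35 to 0.76) and for VIM -0.088 (-0.34 to 0.16). No marker was called, nor was any of the 19181 genes tested, so percent called was 0, with 133 genes at an unadjusted p under 0.05 by limma and 151 by voom. FN1 being called in D11 but not in TPC1 is thus not a shown difference between the lines.

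Transfection with the negative control siRNA called 0 of 8 markers in each line. Over all genes, 0.111% passed the call rule in TPC1 and 0.350% in D11 (63 genes, or 315 with the replicate number as a block). CDH2 had the lowest adjusted p of the 8 in each line. Its NC libraries lay above its NT libraries, by 0.42 on the log2 scale in TPC1 (SE 0.14, adjusted p = 0.339) and 0.39 in D11 (SE 0.10, adjusted p = 0.170). Both were under the fold minimum. Every NC library above every NT library was found for 8.20% of genes in TPC1 and 10.8% in D11. With the replicate number as a block (limma), adjusted p in TPC1 was 0.0213 for CDH2 and 0.0161 for ZEB1, at -0.46 for ZEB1. In D11 these were 0.0994 and 0.555. All stayed under the fold minimum, so none was called. VIM had every NC library below every NT library in D11, like 9.03% of genes, at a log2 change of -0.15 (SE 0.094, adjusted p = 0.513). DICER1 was also higher in NC than in NT, by 0.58 (adjusted p = 0.133) in TPC1 and 0.71 (adjusted p = 0.153) in D11, and in D11 it was called with the replicate number as a block (adjusted p = 0.0460).

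Between the untransfected and NC libraries of D11 and TPC1, 0 of 8 markers were called, with 1.02% of 18814 genes called (0.144% higher, 0.872% lower in D11), or 385 genes in place of 191 with the replicate block. All 8 markers overlapped between the lines, where 0.308% of genes had every D11 library above and 0.951% every D11 library below. CDH2 was 0.20 higher in D11 (95% interval 0.020 to 0.38, adjusted p = 0.446) and SNAI2 was 0.38 higher (95% interval -0.031 to 0.79, adjusted p = 0.531). ZEB2 differed by -0.31 (95% interval -0.76 to 0.15), FN1 by -0.31 (-0.68 to 0.061) and VIM by 0.11 (-0.038 to 0.25). DICER1 was lower in D11 by 0.68 (SE 0.12, adjusted p = 0.00561), although its libraries overlapped, and without D11 NT replicate 1 the difference fell under the fold minimum (-0.58).

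The replicate number moved with several markers. SNAI1 was lowest in replicate 2 in 6 of 6 groups, as were 3.45% of the 19181 genes tested in all libraries, and ZEB1 was highest in replicate 2 in 6 of 6 groups, as were 4.95%. ZEB2 and FN1 were highest in replicate 2 in 5 of 6 groups, and SNAI2 and CDH2 lowest in 4 of 6. No share over all genes is given for these lower counts, so they do not set the markers apart from other genes. A block for the replicate number lowered the standard error of the siDicer change of SNAI2 in TPC1 from 0.20 to 0.12. For ZEB2 in TPC1 it fell from 0.22 to 0.12. In D11 it fell from 0.215 to 0.154 for SNAI2, from 0.219 to 0.136 for ZEB2 and from 0.180 to 0.163 for FN1. For CDH2 in D11 it rose from 0.126 to 0.131. With the block, adjusted p (limma) in TPC1 was 0.00118 for SNAI2, 0.00183 for ZEB2 and 0.00823 for CDH2. In D11 it was 0.00240 for SNAI2, 0.000414 for ZEB2, 0.00288 for CDH2 and 0.0206 for FN1. In TPC1 the adjusted p (limma) of FN1 fell from 0.132 to 0.0324 and that of VIM from 0.0528 to 0.0412. Both changes stayed under the fold minimum, and no call of a marker changed in either siDicer comparison. What the replicate number stands for is not given in the labels, and its part in the values was not tested.

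**Figure D4:**
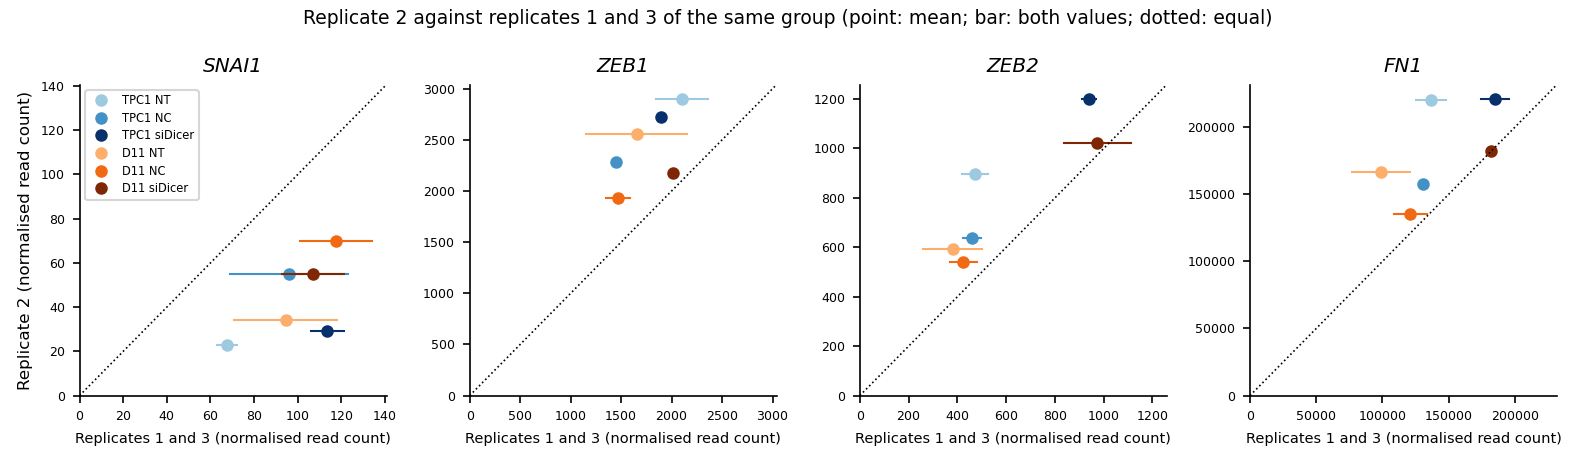
Replicate 2 (y axis) against replicates 1 and 3 of the same group (x axis; point: their mean, bar: both values), in normalised read counts, for SNAI1, ZEB1, ZEB2 and FN1, with 1 point for each of the 6 groups; the dotted line marks equality. All 6 points lie below the line for SNAI1 and above it for ZEB1.

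Over the 18 libraries, the log2 levels of SNAI2 and CDH2 had a Pearson r of 0.87 and those of ZEB2 and FN1 of 0.91, while SNAI2 and ZEB2 had an r of 0.35 and VIM had -0.71 with SNAI2 and -0.73 with ZEB2. The libraries share treatment and replicate number, so these values are a description. Among the 12507 other genes with a mean of at least 100, the closest pattern to SNAI2 was that of MT-TF and DUSP10 (r of 0.96 each), to ZEB2 that of DOCK1 and APP (0.98 each), to CDH2 that of ANKRD13B (0.97) and BAAT (0.96), to FN1 that of ZHX3 (0.98) and PTPRK (0.97), and to ZEB1 that of CDYL2 (0.96) and MAP4K4 (0.95). For VIM it was AL133415.1 (0.97), which overlaps it on the other strand, and RNASEH2A (0.95).

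Other genes of the transition were read from lists kept apart from the markers. Of 16 adherens junction and desmosome genes, JUP, which encodes plakoglobin, was the member called higher in both lines, at a log2 change of 0.81 in TPC1 (adjusted p = 0.0133) and 0.75 in D11 (adjusted p = 0.0119), with 13 and 12 genes tested and list medians of -0.036 and 0.063. Without siDicer replicate 1 or 3 the JUP call was lost in TPC1 (adjusted p = 0.0525 and 0.0724), and without siDicer replicate 3 in D11 (0.0767). Against NT alone the JUP call was also lost in TPC1 (adjusted p = 0.0679, limma). CDH3 was called lower in D11. Of 18 tight junction and polarity genes, F11R, which encodes the junctional adhesion molecule JAM-A, was called higher in both, at 0.83 (adjusted p = 0.0494) and 0.92 (adjusted p = 0.00179). In TPC1 the F11R call was lost in 8 of 9 fits that left out 1 library, and against NT alone (adjusted p = 0.134, limma). LLGL2 was called higher and OCLN lower in TPC1, and PARD6B higher in D11.

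Of 19 epithelial regulators, 10 were tested in TPC1 and 9 in D11. ST14, the gene of the membrane protease matriptase, was called higher at 1.29 (adjusted p = 0.0199) and 1.46 (adjusted p = 0.00373), from control means of 19.7 and 16.5, and MUC1, a surface mucin, was called lower at -1.06 (adjusted p = 0.0427) and -1.37 (adjusted p = 0.00820). The MUC1 call was lost in 6 of 9 fits without 1 library in TPC1 and in 1 of 9, without siDicer replicate 1, in D11 (adjusted p = 0.0512), and that of ST14 was lost in TPC1 without siDicer replicate 1 or 3 (adjusted p = 0.114 and 0.0738). In TPC1 the MUC1 call was also lost against NT alone and NC alone (adjusted p = 0.138 and 0.0569, limma). The ST14 call was lost there against NT alone (adjusted p = 0.0792, limma). Of 20 further transcription factors linked to the transition, HMGA2, an architectural chromatin protein, was called higher in both lines at 0.84 (adjusted p = 0.00512) and 0.96 (adjusted p = 0.00402), and TCF4, SOX4 and ETS1 were called higher in D11.

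The mesenchymal effectors had a list median of 0.65 in TPC1 and 0.50 in D11, with 5 of 16 tested genes called higher and 1 lower in each line, where 3.22% (TPC1) and 5.26% (D11) of all genes tested were called higher and 4.16% and 6.75% lower. Between NC and NT the median of these 16 genes was already 0.43 in TPC1 and 0.40 in D11, with 13 and 14 of them above 0, against 0.0014 and 0.017 over all genes tested. SPARC, a matrix glycoprotein, had a mean of 36935 ± 2642 (SD, n = 3) in TPC1 siDicer against 16568 ± 4693 (SD, n = 6) in controls, a log2 change of 1.20 (adjusted p = 0.00584), and of 1.43 (adjusted p = 0.000646) in D11. SPARC was also called higher in NC than in NT, by 0.75 (adjusted p = 0.0443) in TPC1 and 0.71 (adjusted p = 0.0476) in D11. TNC, the gene of tenascin-C, rose by 1.63 (adjusted p = 0.0127) and 1.79 (adjusted p = 0.0131). Every NC library of TNC also lay above every NT library, by 1.11 in TPC1 (adjusted p = 0.154) and 1.61 in D11 (adjusted p = 0.0587), and against NC alone its siDicer change was 1.07 (adjusted p = 0.00775) and 0.99 (adjusted p = 0.00184). TAGLN, the gene of the actin-binding protein transgelin, rose by 1.63 (adjusted p = 0.0208) and 1.23 (adjusted p = 0.0152). Without siDicer replicate 1 or 3 the calls of TNC and TAGLN were lost in each line (adjusted p = 0.0536 to 0.0767 for TNC and 0.0627 to 0.125 for TAGLN), and that of TAGLN was lost in TPC1 against NT alone (adjusted p = 0.0574) and NC alone (adjusted p = 0.112). FSTL1, which encodes a secreted follistatin-like glycoprotein, fell by 1.44 (adjusted p = 0.000524) and 1.42 (adjusted p = 0.000189). FBN1 was called higher in both lines and ACTA2 in TPC1.

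**Figure D5:**
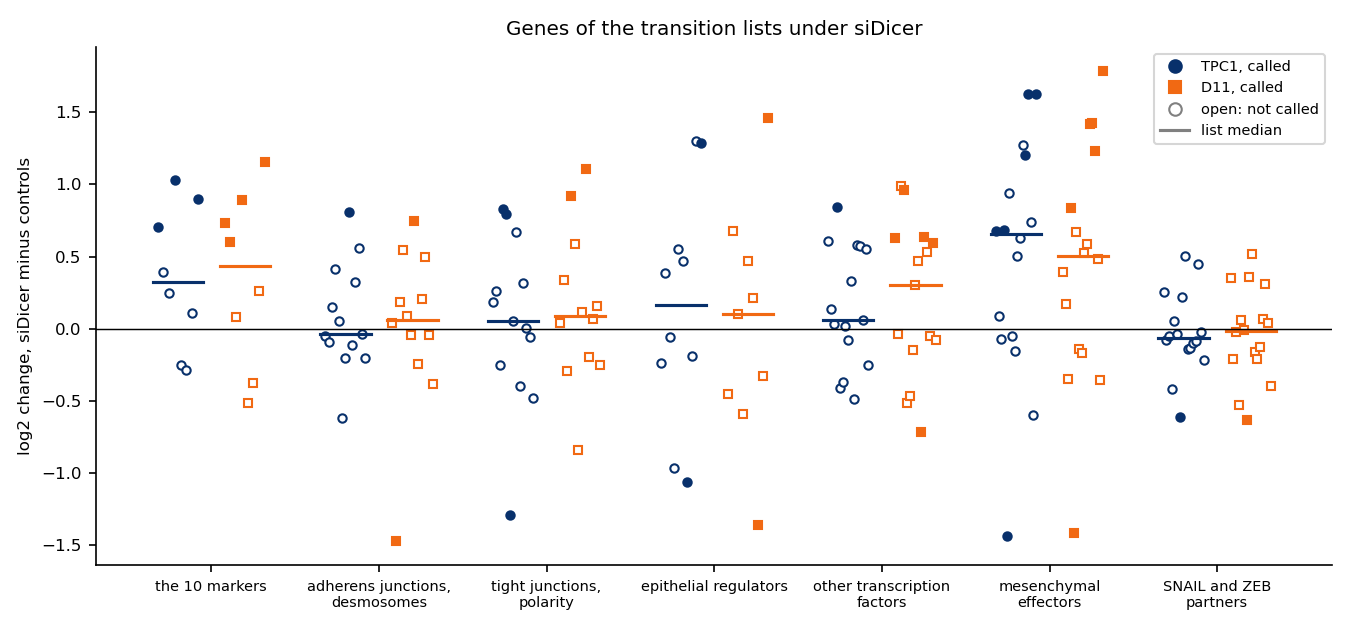
Log2 change under siDicer of each tested gene of the 10 markers and of 6 further lists, in TPC1 (circles, left) and D11 (squares, right), filled where called, with a line at the median. The mesenchymal effectors have medians of 0.65 and 0.50, and the partners of SNAIL and ZEB proteins lie near 0.

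Of 16 partners and regulators of SNAIL and ZEB proteins, all tested, FBXO45, a subunit of a ubiquitin ligase that targets SNAIL-type factors, was the gene called, lower by 0.61 (adjusted p = 0.00582) in TPC1 and 0.63 (adjusted p = 0.00108) in D11, with list medians of -0.067 and -0.017. The TPC1 change of FBXO45 lay close to the fold minimum and fell under it with median-of-ratios scaling (-0.57), without NT replicate 1 or 3 and without siDicer replicate 1 or 3 (-0.58 to -0.57). Against NC alone the change of FBXO45 fell under the fold minimum in both lines (-0.55 in TPC1 and -0.54 in D11). HDAC1, a histone deacetylase that acts with SNAIL, was picked out after its values were seen. It read 3143, 3213 and 3070 (TPC1 NT), 1524, 1521 and 1608 (NC) and 3027, 3401 and 2980 (siDicer), and 3343, 2919 and 3097 (D11 NT), 1774, 1412 and 1505 (NC) and 3475, 3030 and 2982 (siDicer). Of these 6 groups the NC groups were low, at 49.4% (TPC1, adjusted p = 0.00892) and 50.1% (D11, adjusted p = 0.0180) of the NT mean. The call was lost in 3 of 6 fits without 1 library in each line (TPC1 NC replicate 1 or 3 or NT replicate 3, D11 NC replicate 2 or 3 or NT replicate 3), with adjusted p from 0.0681 to 0.156.

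Between the lines, the list genes with the strongest call were each lower in D11: DSC2 (desmocollin 2) at a mean of 6.0 against 99.0 in controls, CLDN1 (claudin 1) at 2403 against 5105, GRHL1 (a grainyhead factor) at 109 against 196 (the call lost in 7 of 12 fits without 1 library), and TGFBI (a secreted matrix protein) at 166 against 882. Of 12 markers of other cell types, PDGFRB was called higher under siDicer in both lines (1.82 in TPC1, adjusted p = 0.0493, lost in 7 of 9 fits without 1 library, and 1.60 in D11, adjusted p = 0.00355), LUM was called higher in TPC1 (1.86), and LUM was lower in D11 than in TPC1 controls (mean 1.0 against 114). The PDGFRB call was also lost in TPC1 against NT alone and NC alone (adjusted p = 0.0855 and 0.172, limma). Of the 12, 4 were tested in TPC1 and 2 in D11. In TPC1 the mean of LUM went from 114 in controls to 424 in siDicer, and that of PDGFRB from 27.0 to 111. In D11 the mean of PDGFRB went from 28.7 to 86.7. The summed level of these 12 markers was 210 to 278 in TPC1 controls and 413 to 807 in siDicer, and 71 to 153 and 177 to 270 in D11, while CD3E and DCN were listed at 0 in every library and PTPRC, CDH5, COL1A2 and COL3A1 never passed the floor. Their part in the marker changes was not tested. Promoter windows of RefSeq (250 bases before to 50 after a start) were matched for 5 of the 10 markers: CDH2, FN1, VIM, ZEB1 and ZEB2. No window was at hand for CDH1, EPCAM, SNAI1, SNAI2 or TWIST1, so their promoters were not searched. The E-box letters CAGGTG or CACCTG, each the reverse of the other strand, were found in 20.6% of 35116 windows. Among the markers they were found in ZEB1 windows, with 1 match at 1 start and 3 at another. ZEB1 also had more windows than any other marker.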

How the data were processed

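Polyadenylated RNA was sequenced as stranded paired-end libraries. Per the paper's methods and the submitters' processing notes, the authors aligned reads to GRCh38 with STAR 2.5.3a and counted them per gene with HTSeq 0.9.1, without a stated strand setting. The authors deposited scores: counts normalised to 20 M reads and rounded, summing to 20010707 to 20018484 per library. The planned edgeR test needs counts and was not run; log2(value + 1) was tested with limma 3.58.1 (R 4.3.3, trend, Benjamini-Hochberg) over genes at 10 or more in at least 3 libraries, with calls set at 0.05 for the adjusted p and at 1.5 for the fold. Such fold changes understate low genes. Reads recovered from steps of the values (99.9% to 100% whole in 16 libraries, while in the other 2 libraries values repeat) were tested with voom. The fits were tested on simulated data.

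The 10 markers and all lists were chosen with earlier results of these data known. Named genes were DICER1, the markers, up to 4 genes of each list called in both siDicer comparisons with the smallest adjusted p in D11, the called gene with the smallest adjusted p between lines, and the 2 genes most correlated with each marker of mean 100 or more; HDAC1, MIR200CHG, MIR205HG, MIR34AHG, the counts over same-numbered pairs and genes named without values were added afterwards. Replicate numbers come from the labels. Deviations of same-numbered libraries correlated above 0.1 in 9 of 9 pairs in D11 (0.108 to 0.504) and 8 of 9 in TPC1 (0.0994 to 0.542). By the rule used, D11 alone counted as paired. TPC1 missed the rule by 1 pair, at 0.0994, so its libraries are not shown to be unpaired. No libraries were duplicates. Gene positions, exon lengths and 3′ untranslated regions are from GENCODE 44, which is not the annotation used for counting. Some genes of the lists are counted but not reported here by name.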

Additional observations from a re-analysis of the deposited data

Results flagged for a closer look

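A single library stood apart from the other 5 controls of its line among the 22 sets of 6 control libraries tested for DICER1 and the 10 markers by Dixon's criterion: FN1 in TPC1 NT replicate 2, at 220137, with a gap to the next control of 0.658 of the whole range (critical value 0.625). By chance about 5% of such sets are marked, so 1 of 22 is no more than chance gives.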

How the results depend on the processing

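The number of markers called was the same, or within 1.5 times, under another scaling (median of ratios), the filters on low values, pseudocounts of 0.1 and 10, voom on recovered reads, a single fit of all 18 libraries and the replicate block, which changed no call of a marker. In each line the titles name all replicate 1 libraries NT, all replicate 2 libraries NC and all replicate 3 libraries siDicer. Each group by title thus holds 1 library of each described treatment. If the descriptions hold, such a fit compares replicate numbers and cannot show a siDicer effect. The number of markers called moved with these groups, to 0 of 8 in TPC1 and 0 in D11 under siDicer, and where NC alone was the control in D11, to 2. With 1 library left out at a time it ran from 0 to 3 in TPC1, with 0 when siDicer replicate 1 or 3 was left out, and from 2 to 4 in D11, with 2 when siDicer replicate 1 or 3 was left out; fewer samples alone lower such counts. Numbers of all genes called ran from 427 to 2094 in TPC1 and from 1374 to 2464 in D11 in those fits; the replicate block gave 565 genes in place of 20 for NC against NT in TPC1.

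Changes of sign concerned small changes or the grouping by titles, where DICER1 itself was not called. Under the titles, NC against NT is replicate 2 against replicate 1, and siDicer is replicate 3. Under the titles the siDicer change in TPC1 was 0.081 for VIM, -0.095 for FN1, -0.16 for ZEB1, -0.13 for ZEB2, -0.098 for JUP, -0.23 for F11R, -0.17 for HMGA2, 0.062 for FSTL1, -0.070 for SPARC and 0.062 for FBXO45. In D11 it was -0.071 for FN1, -0.037 for ZEB1, -0.079 for SNAI2, -0.15 for F11R, 0.29 for MUC1, -0.076 for HMGA2, 0.22 for FSTL1, -0.12 for TNC and -0.28 for TAGLN. For NC against NT the titles gave, in TPC1, -0.43 for CDH2, 0.085 for VIM, 0.48 for FN1, 0.63 for ZEB1, 0.69 for ZEB2, -1.59 for SNAI1, -0.60 for SNAI2, 0.32 for TWIST1 and 0.066 for HDAC1, and, in D11, -0.020 for CDH2, 0.062 for VIM, 0.51 for ZEB1, -1.27 for SNAI1, -0.65 for SNAI2 and 0.035 for TWIST1. The interaction became -0.00041 for DICER1 and -0.063 for CDH2. Against NT alone ZEB1 was -0.13 in TPC1, and against NC alone SNAI1 was -0.10 in TPC1 and -0.20 in D11.

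Leaving out 1 library at a time turned the sign of changes that were not called. The range of the log2 change was under siDicer in TPC1, -0.068 to 0.22 for ZEB1 and -0.12 to 0.89 for SNAI1, under siDicer in D11, -0.17 to 0.39 for SNAI1, between NC and NT in TPC1, -0.080 to 0.082 for VIM, -0.38 to 0.029 for FN1 and -0.42 to 0.13 for ZEB2, between NC and NT in D11, -0.18 to 0.38 for FN1, -0.55 to 0.025 for ZEB1, -0.25 to 0.34 for ZEB2, -0.20 to 0.37 for SNAI2 and -0.13 to 0.063 for TWIST1, for the interaction, -0.13 to 0.12 for CDH2 and -0.81 to 0.20 for SNAI1.

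With 3 libraries per group, TWIST1 and SNAI1 had values of 23 to 134. Changes of these genes smaller than about the reach of their intervals to either side could not be seen. CDH1 and EPCAM were below what this depth resolves.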
